A study of Drosophila melanogaster with 2 samples.

Results

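The sarcomere and muscle structure genes described here are sls, Msp300, bt, Mhc, up, Tm1, Tm2, zormin, Zasp52 and Zasp66. They are 10 of 13945 protein-coding genes on the main chromosome arms, and they were taken by gene name from the Ensembl annotation. Chromatin immunoprecipitation with sequencing (ChIP-seq) had been done on whole Drosophila melanogaster embryos, 0 to 24 h old, from a strain with an insertion that fuses CG10366 to eGFP. The antibody was directed against GFP, and chromatin had been sonicated to 200 to 800 bp. The 2 libraries are biological replicates 1 and 2 of that strain and form 1 group, so the values below compare genes and places in the genome, not conditions. The labels do not state the promoter that drives the fusion or the tissues that carry it. Whole embryos mix all cell types, so binding in few cells and weak binding in many cells cannot be told apart.

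A sarcomere is the contractile unit of striated muscle, in which thick filaments of myosin slide along thin filaments of actin. Tropomyosin and the troponin complex make the thin filament respond to calcium. Thin filaments are anchored at the Z-disc, and giant elastic proteins of the titin kind link the Z-disc to the thick filament. In the fly embryo the muscle forms of such genes are switched on late, in differentiating body wall muscles. The transcription factor MEF2 is among the known activators of muscle genes. Not every gene of the group is restricted to muscle, since Tm1 also makes non-muscle tropomyosins.

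Each library had a ranked list of candidate regions and a thresholded list, and further lists rested on both libraries. A candidate passed when it stood in the series-wide thresholded list, whose members have an irreproducible discovery rate (IDR, a measure of how poorly peaks repeat between runs) of 0.01 or less. It failed when its IDR was higher. The series-wide list held 5153 passing peaks among 34018 ranked regions, replicate 1 had 4876 thresholded peaks and replicate 2 had 3378. The signal of a peak is the authors' value, with a median of 142 in passing peaks and 38.4 in failing candidates. The lists hold no read totals, so depth is unknown. A candidate belonged to a gene when its summit lay in the gene's span or within 500 bp of an annotated start site.

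The muscle structure genes held 6 passing summits, spread over 4 of the 10 genes. Msp300 had 3 of them, while sls, Zasp52 and Zasp66 had 1 each. The remaining 6 genes, bt, Mhc, up, Tm1, Tm2 and zormin, had none. The same regions held 87 failing candidates, and 2 more in Tm1 that met the IDR but were absent from the thresholded list. Every gene of the group therefore had at least 2 ranked candidates, and zormin and bt alone had none at a start site.

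The sequences below show the summits that carry the result. Each gives 50 bp to either side of a passing summit on the gene's strand, in dm6 coordinates, and the capitals mark the longest unbroken stretch of A and T. The Zasp52 summit is described by its values only.

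sls, chr3L:2115838-2115938, minus strand: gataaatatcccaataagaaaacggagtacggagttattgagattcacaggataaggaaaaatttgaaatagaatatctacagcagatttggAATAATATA

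Msp300, strongest summit, chr2L:5108104-5108204, plus strand: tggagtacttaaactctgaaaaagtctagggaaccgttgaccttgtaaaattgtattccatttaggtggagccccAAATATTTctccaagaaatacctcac

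Msp300, second summit, chr2L:5145742-5145842, plus strand: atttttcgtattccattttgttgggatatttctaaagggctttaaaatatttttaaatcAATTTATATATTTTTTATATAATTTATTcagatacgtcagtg

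Msp300, weakest summit, chr2L:5147315-5147415, plus strand: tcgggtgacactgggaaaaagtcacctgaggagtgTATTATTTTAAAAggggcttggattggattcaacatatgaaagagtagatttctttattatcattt

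Zasp66, chr3L:8629029-8629129, plus strand: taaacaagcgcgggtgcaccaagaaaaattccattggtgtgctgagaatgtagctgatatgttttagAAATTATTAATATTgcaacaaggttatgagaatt

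The strongest peaks of the group lay at Msp300 and sls. Msp300 encodes a nesprin, a giant protein of the nuclear envelope that positions muscle nuclei. It spans 106 kb on chr2L:5100877-5207002, with 5 annotated start sites. Its strongest peak (chr2L:5108070-5108268) had a series-wide signal of 555, with 345 in replicate 1 and 214 in replicate 2. That signal exceeded those of 94.3% of the passing peaks. The summit lay in an intron, 358 bp upstream of an internal start site used by 2 annotated transcripts, and 7.277 kb downstream of the gene's first start site.

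The second Msp300 peak (chr2L:5145625-5145907) had a signal of 451, with 250 in replicate 1 and 209 in replicate 2. Its summit lay 594 bp upstream of another internal start site, which 1 transcript uses. The weakest (chr2L:5147200-5147529) had 134, with 82.5 and 62.4, and lay 979 bp downstream of that same start site. The last 2 summits were 1573 bp apart, and 37638 bp separated the strongest from the next. The first start site of Msp300, which 4 transcripts use, had no passing summit, nor had the last, which 3 use. Of the 3 summits, the strongest alone lay within 500 bp of a start site. The gene's 14 failing candidates had signals of 5.96 to 65.8, below the weakest peak. No other gene overlapped these summits, and the nearest other start site, of ND-13A, was 7866 bp from the strongest.

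The sls gene encodes Sallimus, the titin-like protein that spans from the Z-disc, including the isoform known as kettin. It lies on chr3L:2039681-2115611, spans 75.9 kb and has 1 annotated start site, shared by 13 transcripts. Its peak (chr3L:2115798-2115987) lay 277 bp upstream of that start site in intergenic sequence. The signal was 412 in the series-wide list, 244 in replicate 1 and 167 in replicate 2, and it exceeded 90.1% of passing peaks. Inside the 75.9 kb the gene had 5 failing candidates with signals of 20.6 to 36.8, so the upstream peak stood apart from the rest of the gene. The zormin gene ends 1855 bp upstream of the sls start site on the same strand. No start site of another gene lay within 500 bp of the sls summit, and the nearest, of asRNA:CR45802, was 2610 bp away.

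The Z-disc genes Zasp52 and Zasp66 each had a weaker intronic peak. They encode PDZ domain proteins that bind alpha-actinin and help to build the Z-disc. Zasp52 spans 54.4 kb on chr2R:15762565-15817004, and Zasp66 spans 14.4 kb on chr3L:8624371-8638813. The Zasp52 peak (chr2R:15784836-15785165) had a signal of 179, with 97.2 in replicate 1 and 82.5 in replicate 2. It lay in an intron 8939 bp upstream of its closest annotated start. Zasp52 also had 21 failing candidates, with signals of 5.3 to 66.7, of which 18 were intronic. The Zasp66 peak (chr3L:8628914-8629243) had a signal of 123, with 67.7 in replicate 1 and 59.3 in replicate 2. It lay 1164 bp upstream of an internal start site that 5 of the gene's transcripts use. The 5 failing candidates of Zasp66 reached 47.3. Both stood near the middle of the passing peaks, above 62.7% of them for Zasp52 and above 40.8% for Zasp66.

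**Figure D1:**
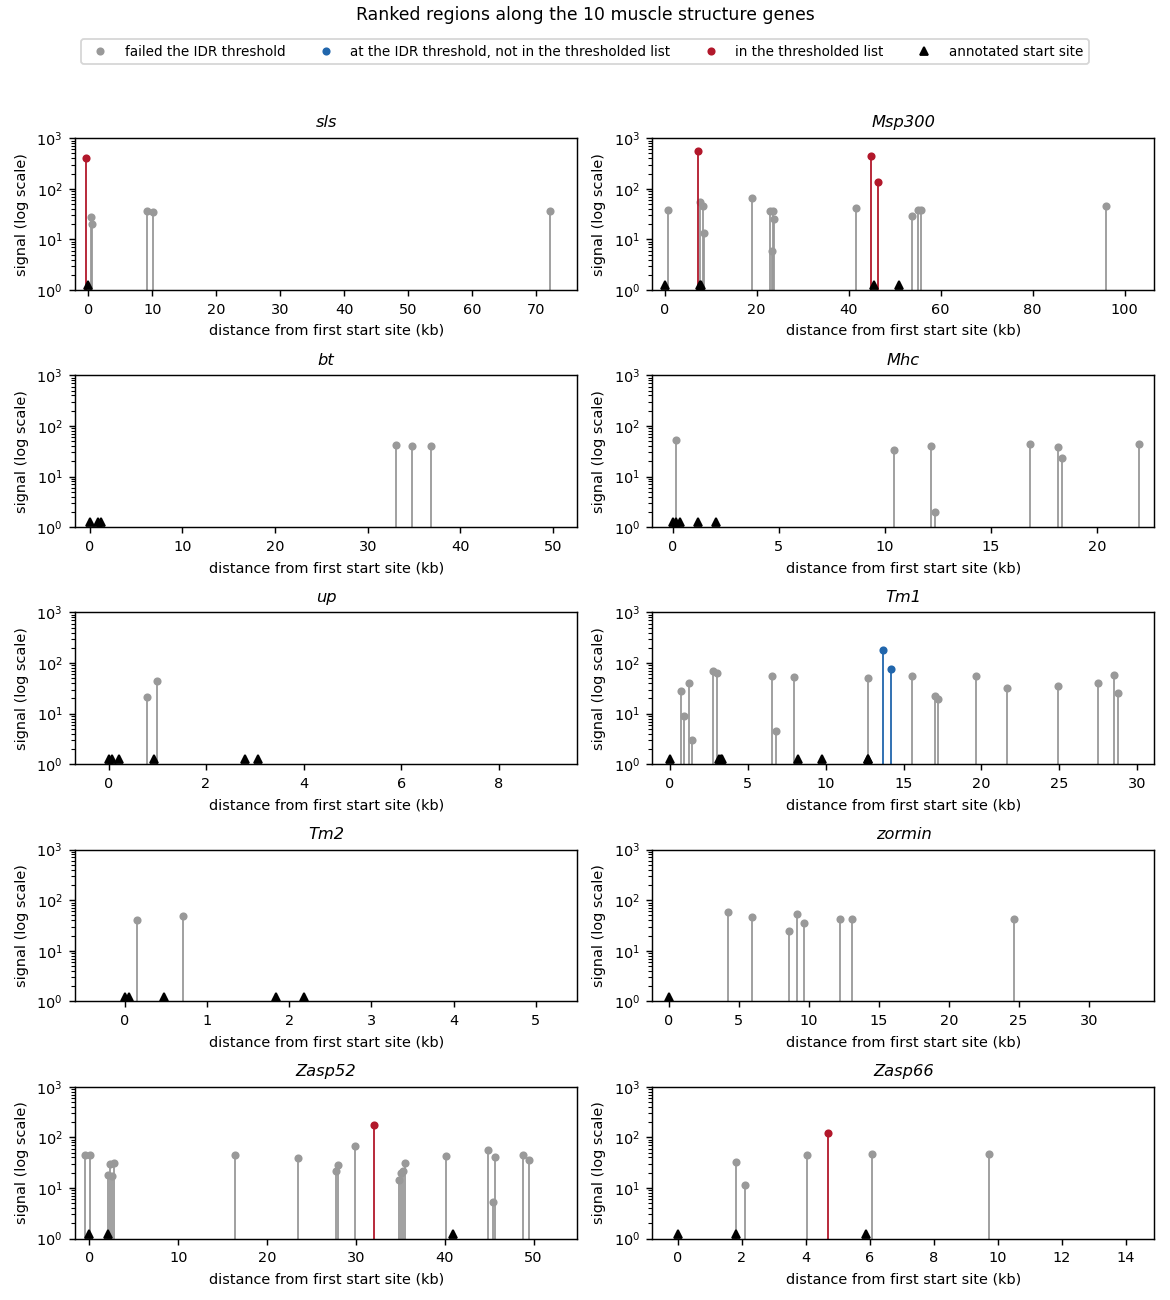
Signal (log scale) of every ranked region of the series-wide list along each of the 10 genes, against distance in kb from the gene's first start site. Red points are in the thresholded list, grey points failed the IDR threshold, blue points met it but are not in the thresholded list, and triangles are annotated start sites. The 6 red points lie in sls, Msp300, Zasp52 and Zasp66, and the 2 blue points in Tm1.

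The other giant and Z-disc genes had weak candidates only. The bt gene encodes projectin, an elastic kinase of the titin family that lies along the thick filament. It spans 52.1 kb on chr4:724400-776474 and held 3 candidates, all failing, with signals of 39.5 to 42.3. All 3 lay 31799 to 35593 bp downstream of the nearest start site. The zormin gene encodes an immunoglobulin-domain protein of the Z-disc and M-line. Its 34.2 kb on chr3L:2117466-2151700 held 8 failing candidates, all intronic, with signals of 24.3 to 57.5. The highest of them, 4194 bp into the gene, had a signal of 40.1 in replicate 1 and 21.3 in replicate 2.

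None of the genes for the contractile filaments had a passing summit in the series-wide list. This held for Mhc, the muscle myosin heavy chain gene, for up, which encodes troponin T, and for the tropomyosin genes Tm1 and Tm2. The Mhc gene on chr2L:16766566-16788766 had 8 failing candidates with signals of 2.01 to 52.3. Its highest lay 17 bp upstream of the start site that 14 transcripts use, and it overlapped a replicate 2 candidate of 31.8 but no ranked region of replicate 1. The up gene on chrX:13593474-13602578 had 2 candidates, of 45.1 and 21.2, within 145 bp of the same internal start site. Tm2 on chr3R:15310193-15315197 had 2 candidates, of 48.3 and 39.8. The strongest failing candidates of Mhc and Tm2, both at a start site, give a comparison with the passing summits.

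Mhc, failing, chr2L:16766667-16766767, plus strand: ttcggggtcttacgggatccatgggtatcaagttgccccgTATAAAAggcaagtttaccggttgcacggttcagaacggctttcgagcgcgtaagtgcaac

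Tm2, failing, chr3R:15310847-15310947, plus strand: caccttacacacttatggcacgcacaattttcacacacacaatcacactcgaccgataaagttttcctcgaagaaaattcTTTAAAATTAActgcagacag

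In the Mhc window the longest A and T stretch was 7 bases and GC content was 52.5%, while the Tm2 window had a stretch of 11 bases and 38.6% GC. Across the group, 19 failing candidates lay within 500 bp of a start site, with signals from 11.2 through a median of 44.6 to 71.

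Among the genes without a passing summit, Tm1 had the most candidates. It lies on chr3R:15278220-15308779 and makes muscle and non-muscle tropomyosins from 8 annotated start sites over 30.6 kb, and it had 21 ranked regions, or 6.76 per 10 kb. That density was above the 2.34 per 10 kb of all protein-coding genes of 30 kb or more and the 2.96 of those of 10 to 30 kb. Several of the Tm1 regions overlapped one another, so 21 is not a count of separate places. An intronic region (chr3R:15291741-15292070) had a signal of 178, with 50.2 in replicate 1 and 128 in replicate 2, and a −log10 IDR of 4.74. A neighbouring one (chr3R:15292261-15292590) had a signal of 77.2, with 32.5 and 50.1, and a −log10 IDR of 2.27. Both met the IDR of 0.01 in the series-wide ranked list, yet neither was in any thresholded list. In the other ranked lists only the stronger met it, with a −log10 IDR of 2.9 in the conservative list, 2.36 in replicate 1 and 4.99 in replicate 2. The weaker had 1.9, 0.177 and 0.578 there, so its absence from those thresholded lists follows from the threshold. Replicate 2 had the higher signal at both regions. They belong to 148 such ranked regions in the series, of which 78 lay on 3R. The other 19 candidates of Tm1 failed, with signals of 3.03 to 71. The windows of the 2 regions are given on the gene's strand, with the longest A and T stretch in capitals.

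Tm1, stronger region, chr3R:15291856-15291956, plus strand: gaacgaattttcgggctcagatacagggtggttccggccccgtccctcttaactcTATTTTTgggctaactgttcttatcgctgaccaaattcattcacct

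Tm1, weaker region, chr3R:15292376-15292476, plus strand: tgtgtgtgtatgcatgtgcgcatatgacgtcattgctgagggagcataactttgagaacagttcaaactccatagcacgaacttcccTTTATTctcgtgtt

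A further Tm1 region passed in the conservative list alone. It lay 354 bp upstream of a start site (chr3R:15280852-15281181), with a signal of 71 and a −log10 IDR of 2.07 there against 1.39 in the series-wide ranked list. Its signal was 34.4 in replicate 1 and 45.9 in replicate 2, and neither replicate's own list passed it.

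All 6 passing summits were found in the thresholded lists of both replicates, by an overlap of at least 1 bp. Of all 5140 passing peaks on the arms, 2982 were (58%). Their signals ran from 67.7 to 345 in replicate 1 and from 59.3 to 214 in replicate 2. The highest failing candidates of the group reached 40.1 in replicate 1, in zormin, and 45.9 in replicate 2, in Tm1, so passing and failing regions did not overlap in either library. Membership of the thresholded list rests on these signals, so this separation is a description. None of the 87 failing candidates overlapped a thresholded peak of either replicate. The matching share of failing candidates elsewhere is not given, so this does not mark the group out. For the 6 passing peaks, summits in the replicate lists lay within 48 bp of the series-wide ones.

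**Figure D2:**
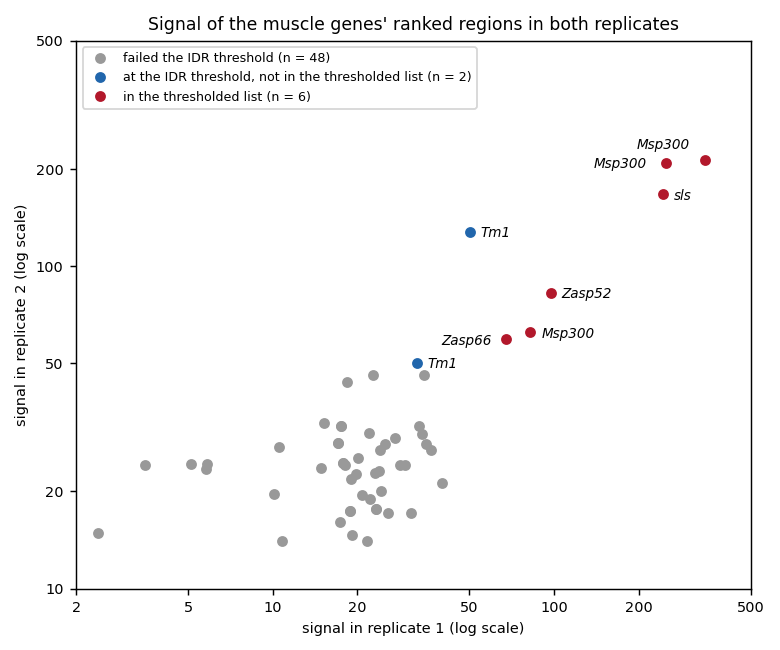
Signal in replicate 1 against signal in replicate 2 (both log scale) for the ranked regions of the 10 genes that overlap a ranked region of both libraries, as points. The 6 red points, in the thresholded list, lie at 67.7 or more in replicate 1 and at 59.3 or more in replicate 2. The 48 grey points failed the IDR threshold, and the 2 blue points are the Tm1 regions missing from the thresholded list. Neighbouring regions can overlap the same replicate region, so some grey points coincide and are not separate measurements.

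Counts in the group were set beside all protein-coding genes, since longer genes hold more summits. A passing summit in the span or at a start site was found for 4 of the 10 members, and for 24.9% of all 13945 genes. Of the 6 members with a span of 30 kb or more, 3 had one (Msp300, sls and Zasp52), beside 58.8% of the 663 genes of that length. Of the genes of 10 to 30 kb, Zasp66 had one and Mhc did not, beside 47.9% of that class. Neither up nor Tm2 had one, beside 28.3% of genes of 2 to 10 kb. At a start site, 2 of the 10 members had a passing summit (sls and Msp300), beside 19.5% of all genes and 24.6% of those of 30 kb or more. With a window of 250 bp in place of 500 bp no member had one, beside 15.5% of all genes. Within length classes the group's counts stood near the background, so they do not mark the group out.

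**Figure D3:**
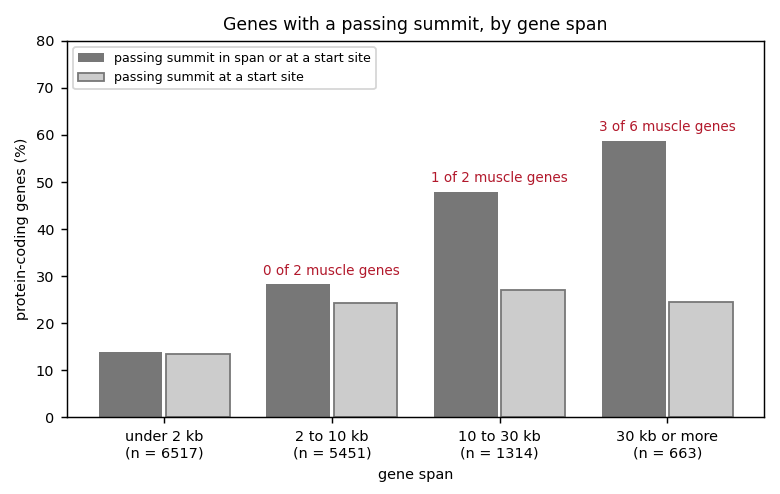
Percentage of protein-coding genes with a passing summit in the span or at a start site (dark bars) and at a start site (light bars), by gene span. The red text gives the muscle structure genes with a passing summit in the span or at a start site, 3 of 6 in the longest class, which has 58.8% over all genes.

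Per length, the group as a whole had fewer passing summits than long genes, a value that rests on 6 summits. The group had 0.147 passing summits per 10 kb, beside 0.295 in all genes of 30 kb or more and 0.534 in those of 10 to 30 kb. A test of each gene per base of its region called no member. Its lowest unadjusted p among them was 0.279, for bt, which had 0 passing summits in 52575 bp (binomial test). A gene with 0 summits cannot have fewer, so the test could not have called bt for a low count. It therefore cannot decide on the low density of the group. Ranked candidates of any kind were about as dense as in long genes, 2.32 beside 2.34 per 10 kb. Of the group's passing and failing candidates 6.45% passed, beside 15.3% on the arms. The share on the arms includes candidates between genes and is not matched on gene length. Among the members the densest was Zasp66, with 0.669 passing summits per 10 kb, then Msp300 with 0.281, Zasp52 with 0.182 and sls with 0.131.

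A test of each gene called no member, and for several it could not have done so. The passing and failing candidates of each gene were compared with those elsewhere by two-sided Fisher's exact test, over 7910 protein-coding genes with a candidate. After Benjamini-Hochberg adjustment 3 genes were called (0.0379%), 2 with a higher share and 1 with a lower one, and none was a member. With their few candidates bt, up and Tm2 could not have been called by any outcome, and none of the 10 members could have been called for a lower share, even with no candidate passing. The test could therefore call only a higher share, in 7 of the 10. No member reached an unadjusted p of 0.05. Only 338 of the 7910 genes did, so this does not set the members apart. The lowest p was that of Tm1, with 0 of 19 candidates passing (Fisher's exact test, p = 0.101, adjusted p = 0.644). For Zasp52, with 1 of 22 passing (4.55%), it was 0.236 (exact test, adjusted p = 0.876), and for Msp300, with 3 of 17 passing (17.6%), 0.736 (exact test, adjusted p = 1). Summits of 1 gene are not independent replicates. The number of genes called rested on the libraries, with 20 in the list of replicate 1 alone and 2 in that of replicate 2, and no member among them.

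The way members were chosen leaves few intergenic summits, so positions were compared over summits within genes. Of the 6 passing summits, 5 lay in introns and 1 in intergenic sequence, and none lay in an exon. Of the 3158 passing summits within genes on the arms 79.7% were intronic, so 5 of 5 does not set the group apart. Of the group's 87 failing candidates 56 lay in introns (64.4%) and 24 in coding exons (27.6%), beside 60.8% and 25.5% of all failing candidates within genes. In Msp300 8 of 14 failing candidates were in coding exons, and in Mhc 4 of 8. Relative to the nearest start site of the same gene, 5 of the 6 passing summits were upstream, and the weakest Msp300 summit was downstream. In Msp300, Zasp52 and Zasp66 that nearest start site was an internal one. The matching share over all passing summits is not given, so this does not mark the group out.

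The passing summits were rich in A and T, like passing summits elsewhere. GC content within 50 bp of them had a median of 32.2% and ran from 20.8 to 38.6%, beside a median of 32.7% for all passing summits. The group's failing candidates had a median of 45.5%, beside 46.5% for all failing ones. The second Msp300 summit had the lowest value, 20.8%, and its stretch of 28 A and T bases was the longest of the 6. Over the 6 summits that stretch had a median of 13.5 bases, beside 10 for all passing summits and 7 for failing ones. The Zasp52 summit had 23.8% GC and the sls summit 29.7%. The Tm1 regions that met the IDR without being listed had 47.5% and 43.6%, above the upper quartile of 40.6% for passing summits.

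**Figure D4:**
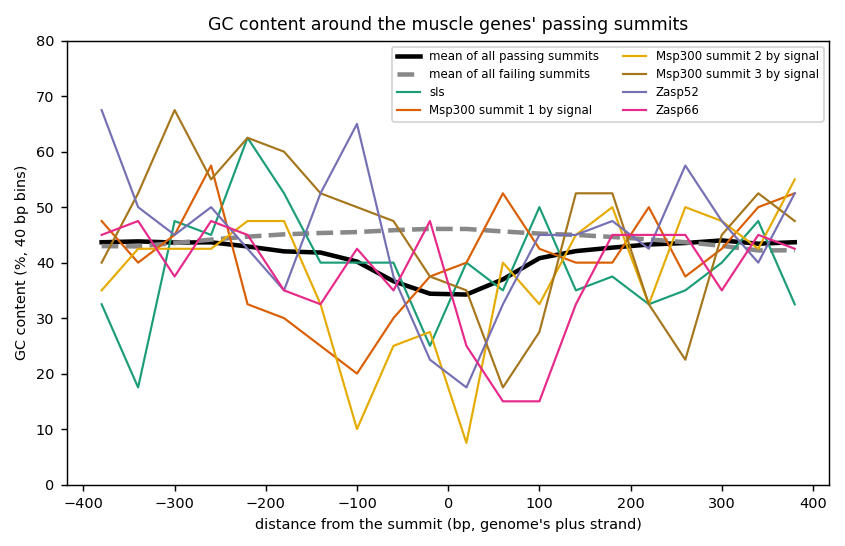
GC content (%) in 40 bp bins from 400 bp before to 400 bp after each of the 6 passing summits of the group (thin lines), with the mean over all passing summits (thick black line) and all failing summits (thick dashed line). The second Msp300 summit falls to 7.5% just beside the summit, where the mean of all passing summits is 34.25%.

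The windows within 100 bp of the summits were searched on both strands for 8 known motifs, with no test. They reach beyond the printed sequences, which end 50 bp from the summit, so a motif counted here need not lie in those. The MEF2 site, searched by its published consensus, was found at 2 of the 6 summits, the strongest and the second of Msp300. It occurred at 12.1% of all passing and 4.89% of all failing summits. Neither of the 2 printed Msp300 sequences holds its MEF2 site, which lay further from the summit. The failing Tm2 sequence printed above does hold a MEF2 site. The GATA letters GATAA occurred at 5 of the 6, with Zasp66 the exception, beside 39.6% of all passing summits and 28.5% of failing ones. The E-box CANNTG was at 2 of the 6, both in Msp300, beside 59.8% of all passing and 67.4% of failing summits. The GAGA element, searched as GAGAG, was found at the weakest Msp300 summit alone, beside 22% of passing and 24.2% of failing summits. The BEAF-32 box (CGATA) was not found in these windows, beside 27.5% of all passing and 20.1% of failing summits. Nor was the DNA replication-related element TATCGATA, which contains that box, beside 3.35% and 0.876%. The CTCF core, searched as AGNNGGCGC, was not found, beside 3.15% and 3.02%, and neither was the MCAT site CATTCC, beside 6.63% and 9.81%. Motifs made of A and T occur more often where GC content is low, and windows were not matched on it here.

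Other muscle genes were read in the same way. Of 38 further genes for sarcomere and muscle attachment proteins, 10 had a passing summit in the span or at a start site (26.3%). The share over all protein-coding genes was 24.9%. These genes held 21 summits, or 0.329 per 10 kb. Of the 38, 9 had no candidate and were not tested, and none of the rest was called by the test of each gene. The highest signals were at Fhos, which encodes a formin that organises actin filaments (725), tmod, the pointed-end capping protein tropomodulin (525), if, an alpha integrin subunit of muscle attachment sites (200), and rhea, which encodes talin (181). Of these, Fhos and tmod had 4 passing summits each, more than Msp300.

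Genes for the contractile filaments in that list were mostly short. Of 15 actin, myosin light chain, troponin, paramyosin and other filament genes, 2 had a passing summit. Over all genes the share was 13.9% under 2 kb, 28.3% at 2 to 10 kb and 47.9% at 10 to 30 kb. That last class holds Prm, which had a summit, and Mf and wupA, which had none. The 15 genes had 0.268 passing summits per 10 kb, from 2 summits, beside 0.337 in the other 23 genes of the list. For the members the values were 0 in the filament genes and 0.176 in the linker, Z-disc and elastic genes. The 2 of the 15 genes with a summit were Act87E, an actin gene with a signal of 109, and Prm, the paramyosin gene, with 84.6. Of the remaining 23 genes of the list 8 had one. Among the members the same division gave 0 of 4 filament genes and 4 of 6 others. The division was made after the values were seen, and the filament members span 5 to 30.6 kb where the others span 14.4 to 106 kb, so it is given as counts with no test.

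Myoblast fusion genes and mesoderm regulator genes had more passing summits for their length than the group. Of 14 fusion genes 7 had a passing summit, with 39 summits or 0.579 per 10 kb, of which 23 were in kirre. Of 16 mesoderm regulators 8 had one, with 16 summits or 0.591 per 10 kb, and Mef2, the gene of the muscle factor MEF2, held 7 of them. A passing summit was found for 24.9% of all protein-coding genes and 58.8% of those of 30 kb or more. Of the genes of that length, 4 of 5 fusion genes and 4 of 4 regulators had one. The arms as a whole had 0.384 passing summits per 10 kb. The group's 0.147 per 10 kb stood below both lists. No gene of either list was called by the test of each gene, and the difference between lists was not tested.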

How the data were processed

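ChIP-seq of CG10366 fused to eGFP was available as peak lists of 2 libraries of whole embryos, in dm6 coordinates. The sources used here name neither aligner nor peak caller, and neither reads nor the named control experiment entered the work. Per the deposited file descriptions, replicate lists came from 1 library each and series-wide and conservative lists from both. The authors deposited a signal per peak, whose scale is not stated, and ranked lists with the −log10 of the global IDR. Every thresholded peak was found in its ranked list at a value of at least 2.

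Genes and start sites came from Ensembl release 115, and sequence from the RefSeq copy of the same assembly, whose arm lengths hold all peak ends. Regions at the IDR threshold but missing from the thresholded list counted as neither passing nor failing. Replicate values are those of the ranked region with the largest overlap. The per-gene test used SciPy 1.17.1 under Python 3.11.15, was checked on simulated data, and was adjusted over all genes with a candidate on the arms, at 0.05. The text names the members, the 4 other muscle genes of highest signal, any called, and some others where a count rests on them. Members, lists and tests were chosen with earlier results of these data known. Unc-89 and Arf51F had no entry under those names and were left out. No test compares groups of samples. The closing section gives the alternatives.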

Additional observations from a re-analysis of the deposited data

Results flagged for a closer look

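The 2 intronic Tm1 regions that met the IDR threshold in the series-wide ranked list, yet appear in no thresholded list, are data outside the passing peaks. The stronger had a signal of 178, above 62.6% of passing peaks, and a −log10 IDR of 2.36 in replicate 1 and 4.99 in replicate 2. The weaker had 77.2, above 9.26% of passing peaks, with 0.177 and 0.578. They lay 520 bp apart, in an intron of 3587 bp, and 16568 bp from the nearest passing summit. In all, 78 protein-coding genes held such a region. Why these regions are missing was not tested.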

How the results depend on the processing

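The counts of members with a passing summit (4) and of passing summits (6) were the same in the list of each replicate alone, at an IDR of 0.001 and with a window of 1000 bp. They were 5 and 7 in the conservative list, which adds the Tm1 region. With a window of 250 bp they were 3 and 5, since the sls summit lies 277 bp from its start site. That window also left 0 members with a passing summit at a start site, in place of 2, because the Msp300 summit lies 358 bp from its start site. Leaving out replicate 1 or replicate 2 gave 2 such members each time. Counting the Tm1 regions missing from the thresholded list as passing, an alternative chosen after seeing the data, gave 5 members and 8 summits. No member was called under any of the 8 alternatives of the per-gene test, among them one per base of gene region, with a lowest adjusted p of 0.644 over all settings. In the main test 3 members could not have been called at all and none of the 10 as lower, so this says little of stability. The number of genes called did vary, from 3 in the main test to 7 in the conservative list, 2 and 20 in the lists of replicate 2 and replicate 1 alone, 4 at an IDR of 0.001 and 38 per base. All 6 summits overlapped both replicates also by at least 50% of each peak. The median GC content was 32.8% within 100 bp and 34.7% in the conservative list. No paired analysis was possible because the 2 libraries form 1 group. Read depth is unknown, so a weak site that fails here may lie below what these libraries could show.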
